A study of Mus musculus with 6 samples.

Results

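The genes described here are 35 mouse genes of calcium cycling and excitation-contraction coupling, picked by name from the 34745 genes of the deposited gene table. The measurements are RNA-seq libraries of left ventricle from wild-type male C57BL/6 mice that were 8 weeks old. In 3 libraries labelled TAC, for transverse aortic constriction, the aortic arch had been narrowed with a ligature, which makes the ventricle pump against a raised pressure. The other 3 libraries, labelled Sham, came from mice given the same operation without the ligation. Tissue of both groups was taken after 6 weeks. The labels do not say that each library came from a different mouse, so the p-values measure only the spread between these libraries, which may be technical.

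In a ventricular myocyte, each action potential opens L-type calcium channels in the transverse tubules, and the calcium that enters opens ryanodine receptors in the facing membrane of the sarcoplasmic reticulum. Calcium released from that store switches on the myofilaments. Relaxation follows as the SERCA pump returns calcium to the store, with phospholamban as its brake, and as the sodium-calcium exchanger and plasma membrane pumps carry the rest out of the cell. In textbook accounts of the failing heart, this cycle slows and the pump is less abundant relative to its brake.

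Gene promoters from RefSeq (build GRCm38.p6) matched 24 of the 35 genes, with 29 start sites. Each holds 250 bases before and 50 after a start. The 4 shown belong to phospholamban, the ryanodine receptor, the store protein Hrc and the kinase Camk2d, genes of the store and its control whose levels did not overlap between the labelled groups. They are written 5′ to 3′ on the gene's own strand, and the capitals mark matches to the motifs searched on both strands.
Pln, chr10:53337436-53337735, plus strand: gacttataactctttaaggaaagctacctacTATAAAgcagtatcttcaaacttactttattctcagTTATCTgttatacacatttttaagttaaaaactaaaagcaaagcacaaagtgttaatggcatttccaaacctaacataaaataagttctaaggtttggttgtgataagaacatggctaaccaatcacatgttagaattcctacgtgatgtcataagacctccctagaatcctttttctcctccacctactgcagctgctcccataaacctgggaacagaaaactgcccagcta
Ryr2, chr13:12106896-12107195, minus strand: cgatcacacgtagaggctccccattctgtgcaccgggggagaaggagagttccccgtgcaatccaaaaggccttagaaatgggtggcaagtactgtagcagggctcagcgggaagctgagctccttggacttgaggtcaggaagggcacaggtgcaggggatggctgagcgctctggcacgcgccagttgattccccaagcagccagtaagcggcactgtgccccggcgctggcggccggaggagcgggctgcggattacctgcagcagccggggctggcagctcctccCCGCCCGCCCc
Hrc, chr7:45335019-45335318, plus strand: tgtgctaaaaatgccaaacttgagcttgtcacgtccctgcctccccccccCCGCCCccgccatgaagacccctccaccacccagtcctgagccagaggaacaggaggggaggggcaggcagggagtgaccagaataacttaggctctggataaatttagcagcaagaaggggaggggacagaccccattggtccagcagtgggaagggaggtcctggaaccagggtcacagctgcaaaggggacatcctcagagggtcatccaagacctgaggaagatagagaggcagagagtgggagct
Camk2d, chr3:126596701-126597000, plus strand: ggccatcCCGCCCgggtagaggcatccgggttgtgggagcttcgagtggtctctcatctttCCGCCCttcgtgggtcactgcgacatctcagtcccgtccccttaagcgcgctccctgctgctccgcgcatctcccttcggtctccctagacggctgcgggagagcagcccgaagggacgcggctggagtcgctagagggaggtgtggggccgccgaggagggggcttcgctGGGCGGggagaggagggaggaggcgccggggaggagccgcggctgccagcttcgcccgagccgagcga

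The capitals in Pln match the letters of a TATA box (TATAAA) and a GATA motif (AGATAA, here on the opposite strand). These matches begin at bases 32 and 68 of the window, while the start follows base 250, so neither lies close to the start. Whether any match is used was not tested. Those in Ryr2, Hrc and Camk2d are GC boxes (GGGCGG on either strand), of which the pair in Ryr2 overlap each other. A GC box lay in 62.1% of the 29 member promoters and in 35.7% of all 32851 promoters of the table. Windows of 1 gene can overlap, so the same match can be counted more than once in these shares. TATAAA lay in 3.45% of member promoters, that of Pln alone, and in 13.6% of all. The GATA motif was found in Pln, Slc8a1 and Atp2b4, that is in 10.3% of member promoters and 11.2% of all. CATTCC, the core of the M-CAT motif, was found in Atp2b4, Mcu and Sri, again 10.3% against 14.7% of all. AAGGTCA, a nuclear receptor half-site, was found among members at Jph2 only. It is a single site there, counted in both of that gene's overlapping windows, which gives 6.90% of member promoters against 4.72% of all. The MEF2 motif, searched by its name's consensus, matched Casq2 only among members (3.45% against 3.19% of all), and the CArG box matched no member and 1.63% of all promoters.

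Gene count totals ran from 17399510 to 28401399 per library. The first principal component of all genes held 47.2% of the variance and separated the labelled groups, and the library labelled TAC 3 stood apart on the next (21.5%). Nppa, which encodes atrial natriuretic peptide and is known to rise in an overloaded ventricle, averaged 97.0 ± 19.7 TMM-scaled FPKM under the label TAC and 1258 ± 815 under the label Sham (SD, n = 3 in each; log2 difference −3.70, SE 0.45, edgeR adjusted p = 0.0222). Acta1, skeletal alpha-actin, another gene of that response, averaged 281 ± 184 and 2647 ± 753 (log2 difference −3.23, SE 0.56, edgeR adjusted p = 0.0448). Both run against the labels, so every direction below is that of the libraries labelled TAC or labelled Sham. FPKM is a read count per length and per library total, here scaled by edgeR's TMM factors so that libraries can be compared, and log2 differences are labelled TAC minus labelled Sham.

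All 8 cardiomyocyte markers were present and had positive differences, none past the threshold, with a median of 0.29. Their summed level was 124864 to 150043 CPM, which is a count per library total with no length, in the libraries labelled TAC and 105901 to 121171 in the Sham group. Ttn carried the largest part of that sum, at 80909 to 91534 against 73962 to 77619 CPM, followed by Myh6. Actc1 and Mybpc3 overlapped between groups and the other cardiomyocyte markers did not. The fibroblast sum (8 of 8 markers tested) was 1346 to 1774 against 2109 to 2773 CPM, and the activated fibroblast sum (7 of 7) was 90.6 to 178 against 1048 to 2464 CPM. The macrophage sum (7 of 7) was 113 to 209 against 255 to 282 CPM. None of these 4 sums overlapped between the groups, and their part in the members' values was not tested. In bulk tissue, fewer cells of a type and less RNA per cell cannot be told apart.

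No member changed at an adjusted p of 0.05, against 1.43% of the 15198 genes tested. All 35 members passed the count filter. The levels nevertheless leaned towards the libraries labelled TAC: 23 members had a positive difference and 12 a negative one. That is 65.7% positive, against 50.9% of all genes tested. The median difference was 0.14 for the members and 0.007 for all genes. Without TMM scaling the members' median was 0.07 and that of all genes −0.06. With limma on log2(FPKM + 0.1) they were 0.02 and −0.05, so the size of the lean depends on the method. Among members, 12 reached an unadjusted p of 0.05 (34.3%, against 20.9% of all genes). Of these, 9 were higher in the libraries labelled TAC (background 9.56%) and 3 in those labelled Sham (background 11.4%). The 2 groups of libraries did not overlap in 14 members, against 27.0% of all genes. All labelled TAC libraries lay above all labelled Sham libraries in 10 of these (28.6%, background 13.4%), and below them in 4 (11.4%, background 13.6%). The smallest adjusted p was 0.111, for Hrc. DESeq2 called 3 members, against 7.44% of the genes it tested, and all 3 were higher in the libraries labelled TAC (background 2.91%): Hrc (adjusted p = 0.0150), Ryr2 (adjusted p = 0.0217) and Cacna1c (adjusted p = 0.0458).

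Together the members took 3.13%, 3.11% and 2.96% of gene counts in the libraries labelled TAC 1 to 3. They took 2.72%, 2.02% and 2.34% in those labelled Sham 1 to 3, so the groups did not overlap. Most of each sum came from Atp2a2 (0.870% to 1.47% over all libraries), Ryr2 (0.407% to 0.648%) and Pln (0.273% to 0.535%). Each of these was itself higher in every library labelled TAC, so the sums do not describe the members as a whole. The library labelled Sham 2 held the lowest level of 11 members and TAC 3 the lowest of 9.

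**Figure D1:**
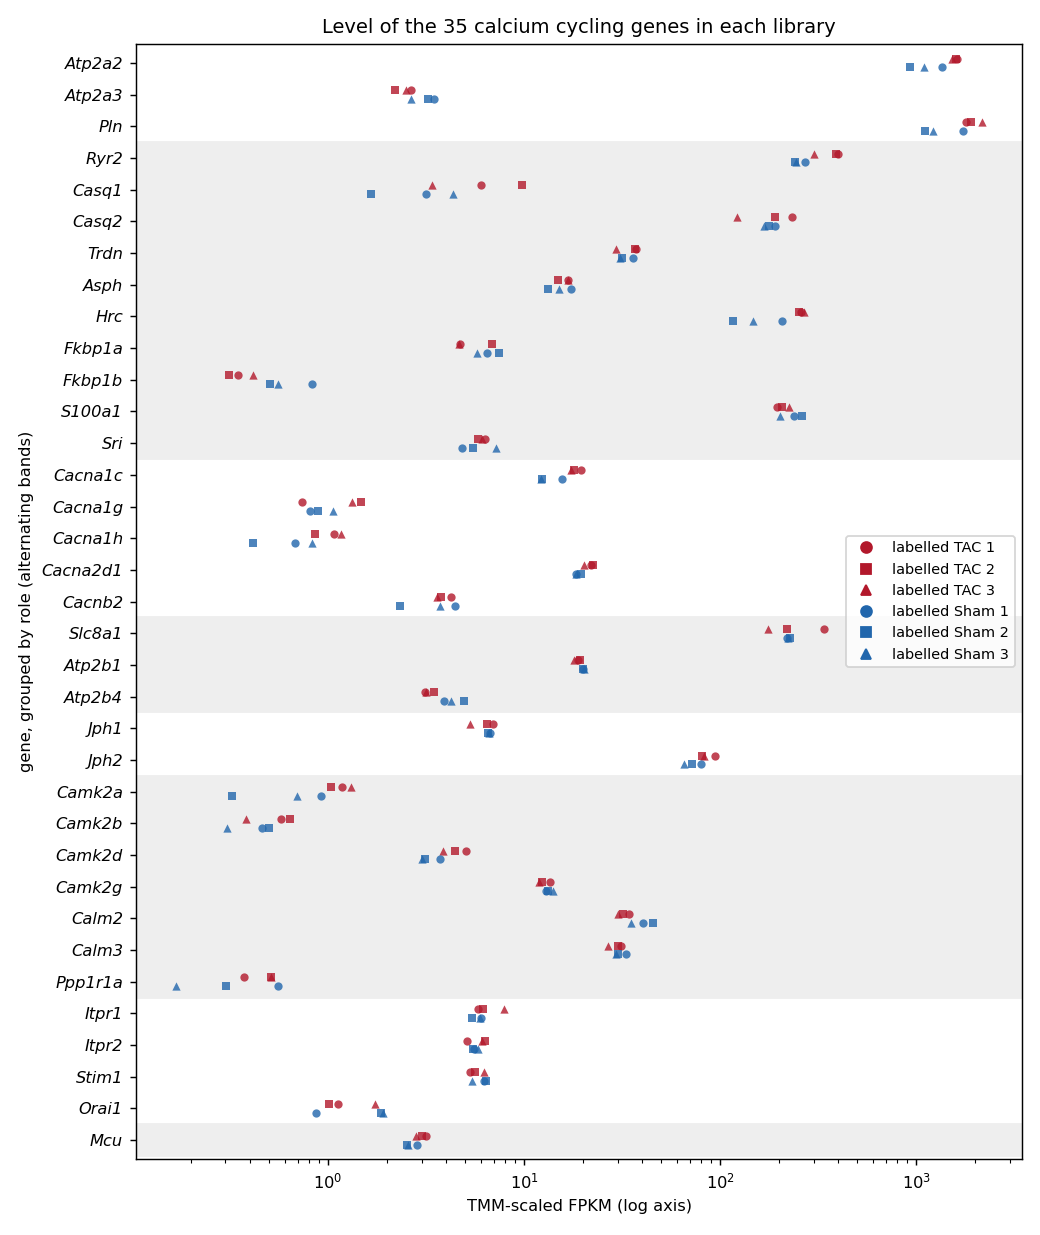
Each row is a gene, ordered by role, and each mark is its TMM-scaled FPKM (log axis) in 1 of the 6 libraries. Phospholamban and the SERCA pump lie at the right near or above 1000, the 3 blue Sham marks of Hrc, Pln and Ryr2 lie left of the red TAC marks, and Slc8a1 and Casq2 are spread by the labelled TAC libraries themselves.

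The pump of the sarcoplasmic reticulum and its brake were the most abundant members per length, and both were higher in the libraries labelled TAC without passing the adjusted threshold. Atp2a2 (ENSMUSG00000029467, chromosome 5, 122453513 to 122502225 on GRCm38, as are all gene positions here), which encodes the cardiac pump SERCA2, stood at 1624, 1596 and 1529 TMM-scaled FPKM in TAC 1 to 3 and at 1359, 927 and 1097 in Sham 1 to 3. All labelled TAC libraries were above all labelled Sham libraries, and Sham 1 was the nearest to them. The means were 1583 ± 48.9 and 1128 ± 217 (log2 difference 0.49, SE 0.17, edgeR adjusted p = 0.173), and leaving out each library in turn gave 0.37 to 0.64. Pln (ENSMUSG00000038583, chromosome 10, 53337686 to 53345999), which encodes phospholamban, stood at 1807, 1910 and 2172 against 1739, 1104 and 1222. Again the groups did not overlap, although Sham 1 came close to the lowest labelled TAC library. The log2 difference was 0.53 (SE 0.19, edgeR adjusted p = 0.179). The level of Pln relative to that of Atp2a2 was 1.24 ± 0.16 in the group labelled TAC and 1.19 ± 0.08 in that labelled Sham, and the groups overlapped (exact two-sided permutation p = 0.70). Atp2a3, the SERCA3 pump of non-muscle cells, was low and lay the other way. It stood at 2.66, 2.20 and 2.50 FPKM against 3.46, 3.23 and 2.64, with overlap (log2 difference −0.35, SE 0.14, edgeR adjusted p = 0.227). The level of Atp2a3 relative to Atp2a2 was 1.80-fold higher under the label Sham, with no overlap, at the smallest p that 3 against 3 libraries allow (exact permutation p = 0.10, adjusted 0.267 over the 16 ratios).

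The 10 genes of the release unit split. Ryr2 and Hrc were higher in every library labelled TAC, the junctional scaffold overlapped between groups, and Fkbp1b, a small stabiliser of the ryanodine receptor, was lower in every library labelled TAC, none past the adjusted threshold. Ryr2 (ENSMUSG00000021313, chromosome 13, 11553103 to 12106945), the cardiac ryanodine receptor, stood at 400, 391 and 300 TMM-scaled FPKM against 272, 242 and 244. The lowest labelled TAC library, TAC 3, was still above the highest labelled Sham library. Means were 364 ± 55.2 and 253 ± 16.8 (log2 difference 0.52, SE 0.16, edgeR adjusted p = 0.128). Hrc (ENSMUSG00000038239, chromosome 7, 45335269 to 45338968), the histidine-rich calcium-binding protein of the store lumen, had the smallest p of the members. It stood at 259, 253 and 267 FPKM against 207, 117 and 147. The labelled TAC libraries were close together and the labelled Sham libraries spread widely below them. Means were 259 ± 7.24 and 157 ± 46.1 (log2 difference 0.72, SE 0.20, edgeR adjusted p = 0.111). Without Sham 1 the edgeR adjusted p of Hrc was 0.0383. That was the only member call in the 6 fits that each left out 1 library. Of these 6, the fit without Sham 1 called the most genes over the whole table. It called more than the 217 genes of the fit with all libraries.

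Casq2, cardiac calsequestrin, the main calcium buffer of the store, did not lean either way. It stood at 233, 191 and 122 FPKM against 191, 178 and 168, with TAC 1 the highest and TAC 3 the lowest of all libraries (log2 difference 0.03, SE 0.22). Leaving out single libraries moved that difference between −0.19 and 0.25. Casq1, the skeletal calsequestrin, was far lower, and was the only member whose fitted difference exceeded 2-fold. It stood at 6.06, 9.72 and 3.39 FPKM against 3.17, 1.65 and 4.36, so that TAC 3 lay below Sham 3 (log2 difference 1.07, SE 0.44, edgeR adjusted p = 0.219). Of the 9 skeletal muscle markers, 7 failed the count filter, and Myh4, a skeletal myosin, had no read in any library. The other 2 did not overlap between groups and were higher in the libraries labelled TAC. Ckm, a creatine kinase that cardiac muscle also expresses, carried nearly all of the list's summed level, with 906, 969 and 817 CPM against 760, 613 and 619. Atp2a1, the skeletal pump, had at most 0.713 CPM. The level of Casq1 relative to Casq2 was 0.0349 ± 0.0138 against 0.0173 ± 0.0084, without overlap (exact permutation p = 0.10, the smallest possible).

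Triadin and junctin anchor calsequestrin to the ryanodine receptor. Trdn, triadin, stood at 37.1, 36.6 and 29.5 FPKM against 35.9, 31.7 and 30.7 (log2 difference 0.07). Asph, whose locus encodes junctin and the related hydroxylase, stood at 16.8, 14.8 and 16.7 against 17.4, 13.3 and 15.0 (log2 difference 0.08). Both overlapped between groups. Of the FK506-binding proteins that stabilise the closed ryanodine receptor, Fkbp1a stood at 4.69, 6.90 and 4.68 against 6.45, 7.41 and 5.76, with overlap (log2 difference −0.27). Fkbp1b was near the limit of counting, with 7, 6 and 8 reads against 17, 14 and 10. Its levels of 0.346, 0.312 and 0.416 FPKM lay below 0.831, 0.505 and 0.555 without overlap (log2 difference −0.80, SE 0.40, edgeR adjusted p = 0.302). The level of Fkbp1b relative to Ryr2 was 2.47-fold higher under the label Sham, the largest separated ratio of the 16 (exact permutation p = 0.10). S100a1, a calcium sensor that acts on the pump and the receptor, stood at 194, 206 and 224 against 239, 260 and 201. Sri, sorcin, which damps the open receptor, stood at 6.35, 5.80 and 6.13 against 4.80, 5.52 and 7.21. Both overlapped (log2 differences −0.16 and 0.06).

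The 5 calcium channel subunits of the plasma membrane all had positive differences, with a median of 0.36. In 3 of them every labelled TAC library lay above every labelled Sham library (background 13.4% of all genes). The list of other plasma membrane channels and Rad/Gem proteins, among the pathway genes below, leaned the other way. Of its 13 tested differences, 3 were positive and 10 negative, with a median of −0.26. Cacna1c (ENSMUSG00000051331, chromosome 6, 118587240 to 119196418), the pore of the cardiac L-type channel, stood at 19.4, 18.0 and 17.4 TMM-scaled FPKM against 15.6, 12.3 and 12.2. Every labelled TAC library was above every labelled Sham library. Means were 18.3 ± 1.02 and 13.4 ± 1.95 (log2 difference 0.45, SE 0.13, edgeR adjusted p = 0.125). Cacna2d1, the auxiliary subunit that carries the channel to the surface, stood at 22.0, 22.4 and 20.3 against 18.4, 19.6 and 18.5 (log2 difference 0.20, edgeR adjusted p = 0.318). That gap was small but also without overlap. Cacnb2, the intracellular beta subunit, overlapped at 4.22, 3.79 and 3.60 against 4.46, 2.34 and 3.72 (log2 difference 0.14). The T-type pores, which are fetal and pacemaker channels, were at the bottom of the range. Cacna1h stood at 1.07, 0.860 and 1.16 against 0.680, 0.414 and 0.829, without overlap (log2 difference 0.69, SE 0.25, edgeR adjusted p = 0.182). Cacna1g stood at 0.740, 1.48 and 1.32 against 0.806, 0.894 and 1.06, with TAC 1 the lowest of all (log2 difference 0.36).

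Of the extrusion genes, the exchanger overlapped and the plasma membrane pumps lay lower in the libraries labelled TAC. Slc8a1, the sodium-calcium exchanger NCX1, stood at 341, 220 and 176 FPKM against 220, 226 and 223. The labelled Sham libraries were nearly equal, and TAC 1 and TAC 3 lay on either side of them. Its log2 difference of 0.14 (SE 0.23) became −0.17 without TAC 1. Atp2b4 (ENSMUSG00000026463, chromosome 1, 133699457 to 133801041), the PMCA4 pump of the caveolae, stood at 3.12, 3.49 and 3.16 against 3.93, 4.95 and 4.24, without overlap (log2 difference −0.43, SE 0.12, edgeR adjusted p = 0.117). It had the smallest p among the members lower in the libraries labelled TAC. Atp2b1, the PMCA1 pump, stood at 18.8, 19.4 and 18.0 against 20.0, 19.9 and 20.2, a narrow gap without overlap (log2 difference −0.10, edgeR adjusted p = 0.582).

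The junctophilins hold the transverse tubule against the store. Jph2, the cardiac form, stood at 94.4, 80.7 and 83.0 FPKM against 80.1, 71.7 and 65.5, without overlap (log2 difference 0.25, edgeR adjusted p = 0.294). Jph1, the skeletal form, stood at 6.92, 6.50 and 5.33 against 6.68, 6.55 and 6.63, with overlap (log2 difference −0.08). The level of Jph1 relative to Jph2 was 0.0727 ± 0.0082 against 0.0920 ± 0.0090, without overlap (exact permutation p = 0.10).

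Among the calcium-activated regulators, 2 kinase genes were higher in all libraries labelled TAC and 1 calmodulin gene was lower. Camk2d (ENSMUSG00000053819, chromosome 3, 126596302 to 126846326), the main CaMKII isoform of the heart, stood at 5.04, 4.45 and 3.86 TMM-scaled FPKM against 3.75, 3.11 and 3.03 (log2 difference 0.43, SE 0.14, edgeR adjusted p = 0.144). Camk2a, the neuronal isoform, was rare at 1.18, 1.04 and 1.31 against 0.923, 0.322 and 0.698, without overlap (log2 difference 0.87, SE 0.34, edgeR adjusted p = 0.203). Neuronal and glial markers gave a summed 5.85 to 7.89 CPM in the TAC group and 5.79 to 11.0 in the Sham group, with Th at 0 in all. Camk2b overlapped at 0.575, 0.637 and 0.384 against 0.458, 0.499 and 0.306 (log2 difference 0.33). Camk2g stood at 13.6, 12.4 and 11.9 against 12.9, 13.3 and 14.1 (log2 difference −0.09).

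The length implied by the deposited values was 46777 bases for Camk2d and 3703 for Camk2g, so Camk2d ranked 24th of the members in FPKM and 12th in CPM, while Camk2g ranked 16th and 21st. The positions of 8 other annotated genes overlap the Camk2d locus, and their summed counts came to at most 39.5% of its own. The level of Camk2g relative to Camk2d was 2.86 ± 0.20 against 4.13 ± 0.63, without overlap (exact permutation p = 0.10). Calm2, a calmodulin gene, stood at 34.3, 32.0 and 30.1 FPKM against 40.4, 45.7 and 35.1, without overlap (log2 difference −0.33, SE 0.13, edgeR adjusted p = 0.194). Calm3 stood at 31.3, 30.3 and 26.9 against 33.1, 30.2 and 29.5 (log2 difference −0.07). The level of Calm2 relative to Calm3 was 1.09 ± 0.03 against 1.31 ± 0.18, again without overlap (exact permutation p = 0.10). Ppp1r1a, the phosphatase inhibitor-1 gene, had 4 to 15 reads per library. Its levels of 0.374, 0.511 and 0.511 FPKM overlapped with 0.554, 0.300 and 0.168 (log2 difference 0.44, SE 0.48).

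The slower calcium routes showed no separation between groups. Itpr1 and Itpr2, the IP3 receptors, had log2 differences of 0.19 and 0.05. Itpr1 reached 7.88 FPKM in TAC 3 and stood between 5.44 and 6.19 in the other 5 libraries. Itpr2 ranged from 5.11 to 6.29 over all 6 libraries. Stim1, the store sensor, ranged from 5.33 to 6.42 (log2 difference −0.07), and Orai1, the channel it opens, from 0.865 to 1.91 (log2 difference −0.26). Mcu, the pore of the mitochondrial uniporter, stood at 3.15, 3.03 and 2.81 against 2.86, 2.53 and 2.56 (log2 difference 0.18), with Sham 1 above TAC 3.

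**Figure D2:**
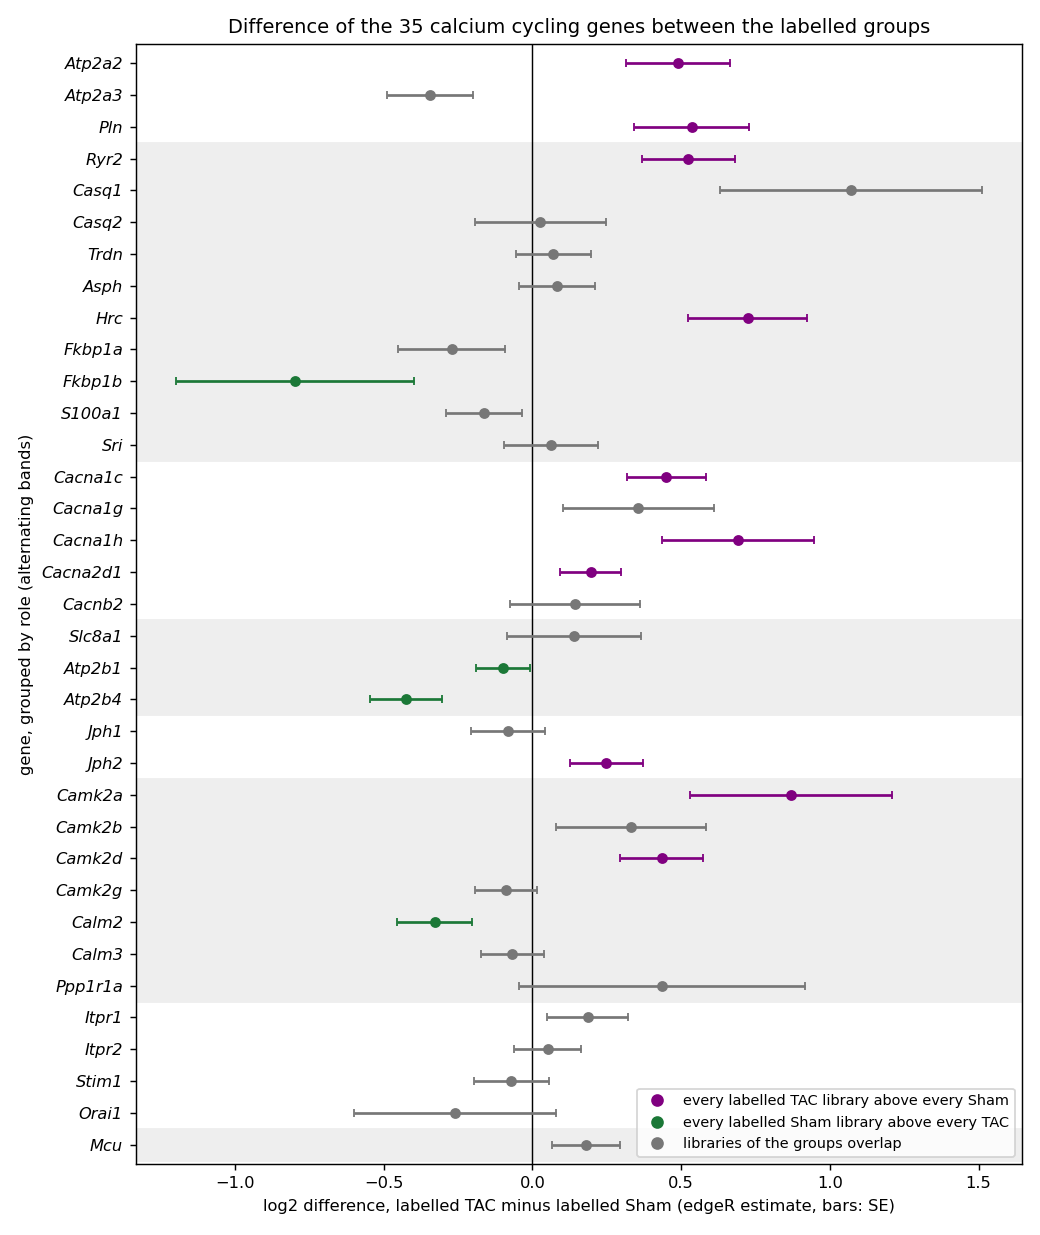
Each point is a member's edgeR log2 difference, labelled TAC minus labelled Sham, with its SE, and the colour says whether the 3 libraries of each group overlap. The 10 purple genes, Atp2a2, Pln, Ryr2 and Hrc among them, lie right of 0, and the 4 green ones, Fkbp1b, Atp2b1, Atp2b4 and Calm2, lie left of it.

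Sham 1 recurred as the nearest labelled Sham library. Among the 10 genes higher in all libraries labelled TAC, Sham 1 was the highest labelled Sham library in 8, and Sham 2 was the lowest in 6. Of the 35 members, 12 had a difference above the cardiomyocyte markers' median.

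Within-library ratios need no scaling between libraries. Of the 16 ratios between members, 6 did not overlap between groups, 1 higher in the libraries labelled TAC (Casq1 to Casq2) and 5 in those labelled Sham. No share over other gene pairs was computed, and among single genes 27.0% did not overlap. Several ratios share a gene, such as Atp2a2, Camk2d or Ryr2, so they are not separate results. The other 10 ratios overlapped. None passed an adjusted threshold, because 3 libraries against 3 cannot give an exact p below 0.10.

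**Figure D3:**
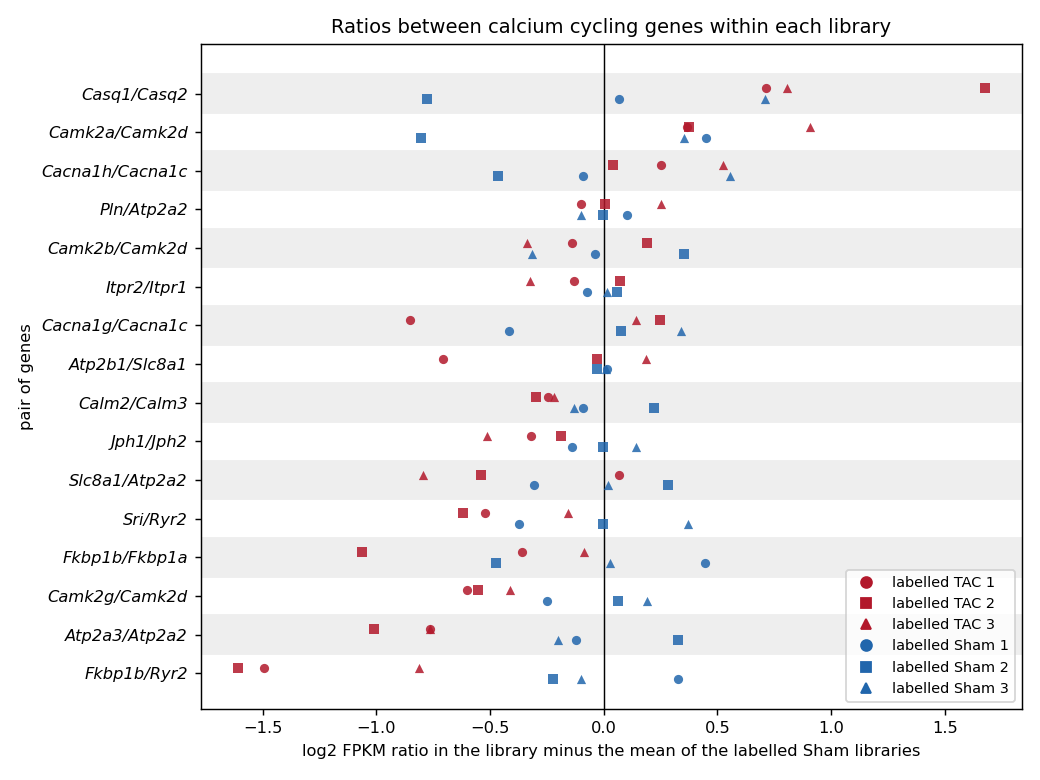
Each row is a pair of members, and each mark is the log2 of their FPKM ratio in 1 library minus the mean of the labelled Sham libraries. Red TAC marks lie left of all blue Sham marks for Fkbp1b/Ryr2, Atp2a3/Atp2a2, Camk2g/Camk2d, Jph1/Jph2 and Calm2/Calm3, and right of them for Casq1/Casq2, while Pln/Atp2a2 stays near 0.

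Other genes of the same pathway, 99 by name in 8 groups, were found in the gene table in 98 cases and tested in 87. None passed the adjusted threshold with edgeR, against 1.43% of all genes. At an unadjusted p of 0.05, 10 were higher under the label TAC (11.5% of those tested, background 9.56%) and 11 under Sham (12.6%, background 11.4%), shares near those of all genes. Of the 87 differences, 33 were positive (37.9%, against 50.9% of all genes) and 54 negative, with a median of −0.07. DESeq2 called 8 of them, against 7.44% of all genes. Among them, Cacng6 was higher under the label TAC, and Tmem38b, Bin1, Akap13, Hspb6 and Camkk2 were higher under Sham.

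Some regulators of SERCA2 other than phospholamban are also small membrane peptides. The gene listed as Gm34302, whose identifier is that of Strit1, encodes DWORF, a peptide that relieves the pump of its brake. It stood at 2.79, 3.14 and 3.56 TMM-scaled FPKM against 1.77, 1.02 and 1.12, without overlap (log2 difference 1.28, SE 0.39, edgeR adjusted p = 0.132). Sln, sarcolipin, an atrial and skeletal brake, did not follow the labels. It was listed at 0 in TAC 1, at 0.198 in TAC 2 and at 6.12 in TAC 3, against 3.53, 0.137 and 4.75. The atrial light chain Myl7 was high in the same libraries, at 11.6 CPM in TAC 3 and 9.95 and 10.2 in Sham 1 and Sham 3, and at most 1.43 in the others. Atp2a1, the skeletal pump SERCA1, had 12, 14 and 13 reads against 6, 0 and 4 (edgeR adjusted p = 0.189).

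At the membrane, Cacng6, a gamma subunit of calcium channels, had 26, 20 and 25 reads against 4, 0 and 4 (edgeR adjusted p = 0.0674). In the T-tubule list, Bin1, the tubule-forming amphiphysin, stood at 2.90, 2.60 and 2.70 against 3.71, 4.28 and 4.57 (log2 difference −0.61, SE 0.15, edgeR adjusted p = 0.0865). Cacng7 and Cacnb1, other channel subunits, had log2 differences of −0.70 and −0.53. Ehd4 and Myzap of the T-tubule list overlapped at −0.45 and 0.30, and so did Slc8a2 of the extrusion list at −0.64.

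In the store, Tmem38b, the TRIC-B potassium channel that balances the charge of release, stood at 7.15, 6.55 and 5.48 FPKM against 9.21, 11.6 and 8.85 (log2 difference −0.63, SE 0.15, edgeR adjusted p = 0.0891). Ryr3 overlapped (log2 difference −0.91).

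Of the kinase and phosphatase list, 8 of 23 tested differences were positive. At an edgeR unadjusted p of 0.05, 5 genes of this list were higher under the label TAC (21.7%, background 9.56%). Under Sham there were 3 (13.0%, background 11.4%). Those of the list named here were higher under Sham. Hspb6, a small heat shock protein that binds the phosphatase acting on phospholamban, stood at 71.8, 61.9 and 35.8 against 93.4, 103 and 86.6 (log2 difference −0.74, edgeR adjusted p = 0.144). Akap13 and Camkk2, a kinase anchor and a kinase that responds to calmodulin, had log2 differences of −0.44 and −0.68 (edgeR adjusted p = 0.111 and 0.129). Of the mitochondrial list, Ccdc109b, also called Mcub, the subunit that restrains the uniporter, stood at 0.621, 0.916 and 0.523 against 1.28, 1.22 and 1.53 (log2 difference −0.96, edgeR adjusted p = 0.126). Vdac1, the outer membrane pore, had a log2 difference of 0.27 without overlap. Itpr3 and Plcb1 of the IP3 list had −0.43 and −0.50, and Orai2 −0.99, all past no adjusted threshold.

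A second deposited table holds 43234 long noncoding RNA (lncRNA) transcripts, of which 16035 were tested and 17 passed (0.106%). By coordinates, 134 of them overlapped 26 of the member loci, and 108 of these were tested, 105 lying wholly inside the gene. None passed, and the smallest adjusted p was 0.147. At an unadjusted p of 0.05 there were 19, against 12.6% of all transcripts, and 75 of the 108 had a positive difference, against 50.4% of all. Transcripts of 1 locus often went together, so these counts are not of separate results. Positive were 13 of 13 tested at Slc8a1, 10 of 10 at Cacna1c, 8 of 8 at Cacnb2 and 5 of 5 at Atp2a2. At Cacna2d1 it was 6 of 12, and at Stim1 0 of 4. The groups did not overlap in 19 transcripts higher in the TAC group and in 10 higher in the Sham group (background 10.3% for each). With DESeq2, 7 passed, against 1.30% of all transcripts. Exon coordinates and strand were not given in the sources used here, and 18 of the transcripts had, in every library, counts equal to those of an entry of the gene table. Whether reads of the host genes are counted in these transcripts was not tested.

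The 3 most abundant of these transcripts lay in Ryr2, Cacna2d1 and Slc8a1. The transcript in Ryr2 (NONMMUT016357.2, chromosome 13, 11553105 to 11554226) held 276, 276 and 185 CPM against 214, 190 and 187 (log2 difference 0.32, edgeR adjusted p = 0.541). The one in Cacna2d1 (NONMMUT051312.2, chromosome 5, 16371081 to 16374504) held 183 ± 12.4 against 182 ± 6.60 CPM. The one in Slc8a1 (NONMMUT030804.2, chromosome 17, 81598156 to 81602479) held 144 ± 33.2 against 112 ± 24.0 CPM (log2 difference 0.36). All 3 overlapped between groups.

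At Atp2a2, a locus picked out after the values were seen, each tested transcript differed more than the host gene. All 5 tested transcripts there, which lie between positions 122470660 and 122500831 of chromosome 5, were higher in every library labelled TAC, with log2 differences from 1.04 to 1.23, while that of the gene was 0.49. The largest difference (NONMMUT054362.2, 122496159 to 122498008) was that of a transcript at 59.1, 56.0 and 84.3 CPM against 32.8, 24.2 and 27.9, with no overlap (SE 0.22, edgeR adjusted p = 0.147). Summed, the 5 transcripts came to 2.39%, 2.13% and 3.51% of the count of Atp2a2 in TAC 1 to 3 and to 1.47%, 1.51% and 1.51% in Sham 1 to 3. The percentage was 1.74-fold higher under the label TAC (exact permutation p = 0.10, adjusted 0.46 over 23 loci), and its log2 difference was 0.59 to 0.95 as each library was left out.

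That percentage was higher in the libraries labelled TAC for many genes. Over 1878 genes with a mean count of at least 1000 and a tested transcript at the locus, 21.9% had a percentage higher in every library labelled TAC and 2.66% in every library labelled Sham, and the median log2 difference was 0.16. Of the 23 member loci, 5 were higher in every library labelled TAC (Atp2a2, Casq2, Trdn, Atp2b1 and Itpr1) and none in every library labelled Sham. The share of 5 in 23 is near 21.9%, but the sets are unlike. Casq1, Camk2a, Stim1, Mcu, Jph1 and Fkbp1a are among the 23 with a mean count below 1000. The 5 separated loci all had a mean count above 1000, so the share among member loci that reach that count was higher than 5 in 23. A log2 difference above that of Atp2a2 was found in 6.35% of the 1878 genes. All lncRNA counts together came to 9.13%, 9.22% and 9.48% of gene counts in TAC 1 to 3 and to 8.52%, 8.44% and 8.89% in Sham 1 to 3. At Casq2 the percentage was 3.29%, 2.42% and 9.65% against 2.19%, 2.37% and 2.21%, so its mean rests on TAC 3. At Trdn it was 153%, 139% and 157% against 120%, 115% and 115%, while the level of Trdn itself overlapped between groups. Of the 5 transcripts summed at Trdn, only NONMMUT005203.2 and NONMMUT005204.2 were higher in every library labelled TAC. The second lies within the positions of the first. Whether the same reads are counted in both was not tested.

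**Figure D4:**
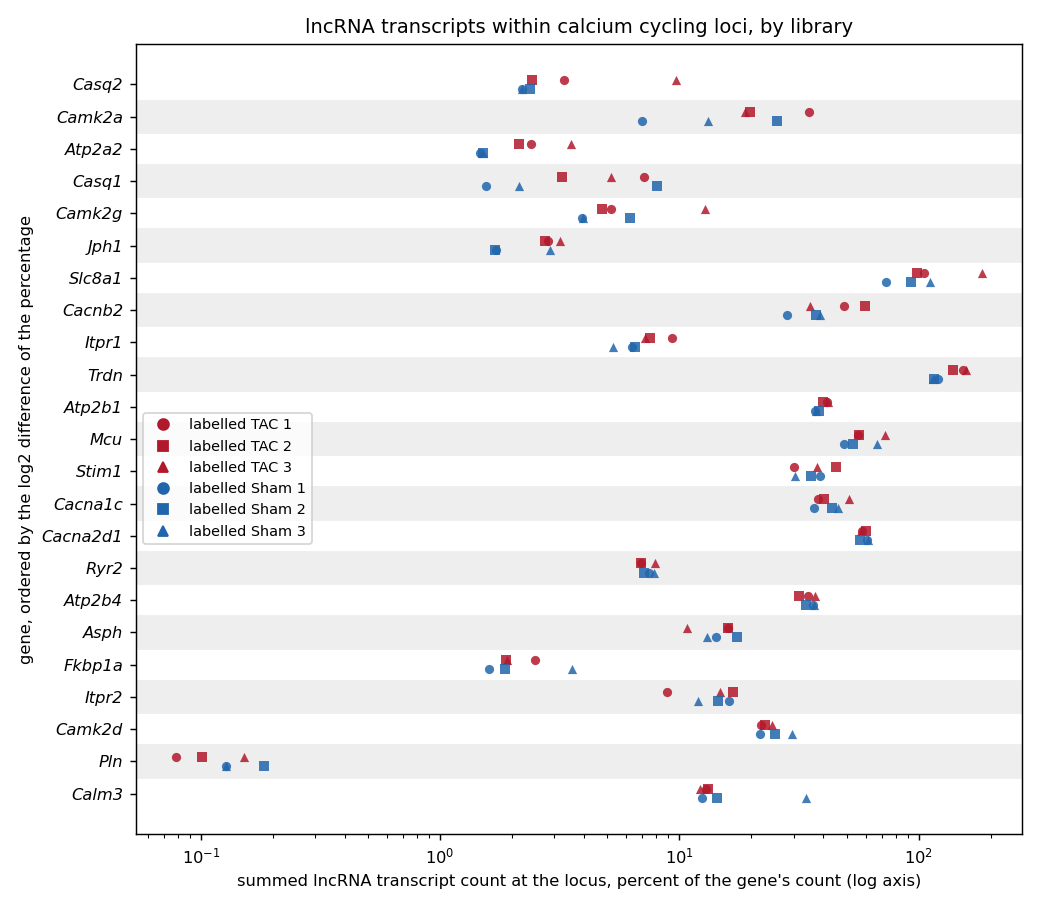
Each row is a member locus, ordered by the log2 difference, and each mark is the summed count of its lncRNA transcripts as a percent of the gene's count (log axis) in 1 library. The red TAC marks lie right of the blue Sham marks at Atp2a2, Casq2, Itpr1, Trdn and Atp2b1, and TAC 3 is far to the right at Casq2, Camk2g and Slc8a1.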

How the data were processed

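Left ventricle RNA of 6 libraries, 3 labelled TAC and 3 labelled Sham, was sequenced from total RNA (VAHTS kit), per the labels' protocols. HISAT2 2.0.4, StringTie 1.3.0 and the build GRCm38 (mm10) are named in the submitters' processing notes; annotation, counting settings and strand use were not given in the sources used here. The authors deposited raw read counts and FPKM values per gene and per lncRNA transcript, per the file headers. From the counts, edgeR 4.0.16 in R 4.3.3 (TMM scaling, a minimum count of 10, quasi-likelihood test, two-sided, Benjamini-Hochberg over all genes tested, adjusted p under 0.05) gave the differences. DESeq2 1.42.0 and limma 3.58.1 on log2(FPKM + 0.1) were alternatives. TMM-scaled FPKM is each count divided by the TMM library size and by the length implied by the deposited counts and FPKM. The lncRNA table was fitted on its own; its library size, implied by its FPKM, was 1.016 to 1.024 times the gene total. Ratios within a library were tested by exact permutation. lncRNA totals ran from 1547100 to 2397057 counts. With 3 libraries a group and deep counts, the spread between libraries, not depth, limits most members; Fkbp1b and Ppp1r1a are limited by their reads. The edgeR step was tested on simulated data.

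All 35 members are named; of the other pathway genes, those past the threshold and up to 3 per list with the smallest p, some of which are not reported here; of lncRNA transcripts at members, those past the threshold and the 3 of highest mean count; from the markers, Nppa and Acta1. The other marker genes given, the transcripts at Atp2a2 and the percentages at Atp2a2, Casq2 and Trdn were chosen after their values were seen. The members and lists were chosen with earlier results of these data known. Of 209 symbols listed, 204 matched by symbol and 4 by gene ID. Marker lists beside those in the report had these summed CPM, labelled TAC against labelled Sham: endothelial 1258 to 1416 against 1155 to 1434; pericyte and smooth muscle 1606 to 2033 against 1410 to 1784; atrial 109 to 193 against 677 to 1946, carried by Nppa alone, while the other tested atrial markers (Myl7, Myl4, Sln and Kcna5) overlapped between groups; skeletal muscle 818 to 971 against 614 to 761; red cell and neutrophil 240.3 to 527 against 231 to 299; pressure overload 3355 to 8879 against 16096 to 36809.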

Additional observations from a re-analysis of the deposited data

How the results depend on the processing

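Of 488 refits of single members, 467 kept direction and side of the threshold, 17 reversed and 4 gained a call. Counts of calls moved more. Genes called, 217 with edgeR (168 higher under the label Sham, 49 under TAC), were 338 without TMM (42 higher in TAC), 432 without the count filter, 1164 with DESeq2, 41 with the replicate block and 0 to 397 with 1 library left out (0 without TAC 1, 10 without TAC 2, 22 without TAC 3, 397, 24 and 40 without Sham 1, 2 and 3). Members called were 3 with DESeq2 and 0 to 1 with 1 library left out; those at an unadjusted p of 0.05 were 7 to 10 with 1 left out, and 7 without TAC 1, without TAC 3 or without Sham 2. Other pathway genes called were 1 without the filter, 8 with DESeq2, 1 with limma at either pseudocount (Cacng6), and 0 to 1 with 1 left out. The members' median of 0.14 was 0.069 without TMM, 0.025 and 0.023 with limma at the smaller and larger pseudocount, and 0.051 to 0.19 with 1 left out. lncRNA transcripts called, 17, were 233 with DESeq2, 11 with the block and 18 to 31 with 1 left out; at member loci DESeq2 called 7. Ratios without overlap were 7 to 8 with 1 left out, a count that leaving out a library cannot bring below the 6 of all libraries.

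Signs turned for members near 0. Casq2 was −0.042 without TMM, −0.086 with limma at either pseudocount, −0.022 with the block and −0.19 to 0.25 with 1 left out. Sri was −0.0081 without TMM and −0.063 to 0.24 with 1 left out. Itpr2 was −0.013 without TMM, −0.017 and −0.014 with limma at the smaller and larger pseudocount, and −0.0038 to 0.14 with 1 left out. With 1 library left out, Asph gave −0.0022 to 0.19, Cacnb2 −0.077 to 0.35, Slc8a1 −0.17 to 0.33 and Jph1 −0.16 to 0.021. The log2 ratio differences gave −0.048 to 0.13 for Pln to Atp2a2, −0.25 to 0.080 for Camk2b to Camk2d, −0.36 to 0.19 for Cacna1g to Cacna1c and −0.37 to 0.078 for Atp2b1 to Slc8a1. The cause was not tested. The block was fitted although the numbers do not pair the libraries: deviations of same-numbered libraries correlated at −0.12, −0.13 and −0.10, and under the block 10 members stood at an unadjusted p of 0.05. Fkbp1b gave no value without Sham 1 or with mitochondrial genes left out, since it then failed the count filter. The locus percentages of lncRNA were added after the data were seen.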
